A study of Homo sapiens with 2 samples.

Results

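Of the 1947 genes with deposited values, 20 belong to the gene families that attach ubiquitin to proteins or remove it. They were taken by a name rule that was set with earlier results of these data known. It takes symbols starting with UBE2, UBE3, USP, RNF, TRIM, FBXO, FBXL, FBXW, KLHL, HERC, NEDD4, CUL, OTUD or MARCH. Most of these must be followed by a digit, and UBE2C was left out. The values come from C4-2, an established human prostate cancer line that was selected from LNCaP cells, has the androgen receptor and needs little androgen for growth. One library of polyadenylated RNA came from cells given vehicle and 1 from cells given ebastine, an antihistamine that blocks the H1 receptor; both groups were the same line, grown in medium with serum, at passage 10 to 15, and neither dose nor exposure time is given in the sources used here. With 1 library on each side, a difference below is a difference between these libraries, with no spread between replicates and no p-value of the drug's effect. The series title puts EZH2, a histone methyltransferase, as the drug's target; EZH2 itself had 26.2 FPKM in the vehicle library and 18.4 FPKM in the ebastine library.

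Ubiquitin reaches a protein in a relay. An E1 enzyme activates it, an E2 conjugase carries it, and an E3 ligase picks the substrate; HECT ligases take the ubiquitin over before passing it on, while RING and TRIM ligases bring the E2 to the substrate. Cullin-RING ligases are built from a scaffold and exchangeable adaptors such as F-box and BTB-kelch proteins, the anaphase-promoting complex is a related ligase that drives cells through mitosis, and deubiquitinases take the mark off again.

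Every listed gene passed the authors' own Cuffdiff comparison, and the largest listed p-value is 0.0499. The listed q-values imply 13714 tested genes, so 14.2% of them are listed. That test used 1 library a group, so its p-values and q-values compare the libraries and not the treatments. A gene outside the table has no value here, whichever way it lay. Levels are in FPKM, fragment counts scaled to transcript length and to library size, and ratios are log2((ebastine FPKM + 1)/(vehicle FPKM + 1)), which understates low genes. Sequencing depth is unknown. Median FPKM over all listed genes was 10.5 with vehicle and 9.49 with ebastine. Of 14 prostate luminal markers 7 were listed, 4 lower and 3 higher with ebastine. KLK3 went from 2476 to 1599 FPKM, and FOLH1 the other way, from 495 to 840 FPKM. Of the markers of other cells, 0 of 9 for basal or squamous epithelium, 0 of 10 for fibroblasts or endothelium and 1 of 10 for leukocytes were listed, the last being CD4, below 1 FPKM in both libraries.

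The ubiquitin genes went both ways, with the ligase NEDD4L at the top and the conjugases UBE2S and UBE2T at the bottom. With ebastine 9 of the 20 were higher and 11 lower, beside 43.0% higher and 57.0% lower among the 1768 listed genes averaging at least 1 FPKM, a level that all 20 reached. At 1.5-fold or more, 3 members were higher (NEDD4L, USP54 and TRIM2) and 3 lower (UBE2S, UBE2T and FBXO5), against 9.67% and 18.6% of those 1768 genes. Their median log2 ratio of -0.30 lay beside -0.32 over all listed genes. By the authors' deposited q-values, 9 of the 20, or 45%, lay below 0.05, 5 higher and 4 lower, beside 42.3% of the 1768 genes. As a group the members lay near the background, and the counts past 1.5-fold rest on 3 genes each. Mean levels ran from 1.13 FPKM for FBXO15 to 188 FPKM for UBE2S.

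Few of the families' genes were listed at all. RefSeq (GRCh38.p14) holds 413 coding genes whose symbols meet the rule, and 20 of them, or 4.84%, were listed, beside 9.09% of its 20056 coding symbols. How many of the 413 the authors tested is not known, so the shares cannot be compared directly. By class, 3 of 35 E2 conjugases, 1 of 12 HECT ligases, 4 of 96 RNF and MARCH ligases, 5 of 77 TRIM proteins, 4 of 108 cullins and adaptors and 3 of 85 deubiquitinases were listed. None of the 8 cullins, 17 FBXL, 10 FBXW, 11 MARCH, 6 HERC, 4 UBE3 or 8 OTUD genes was among them.

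**Figure D1:**
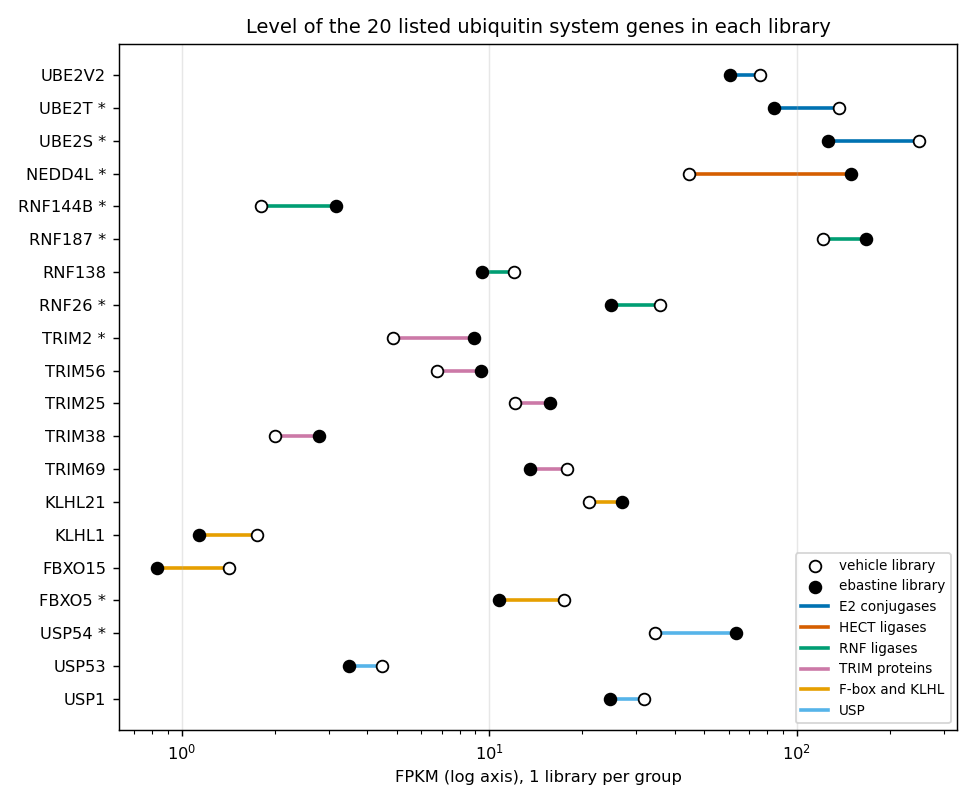
Level of each of the 20 listed ubiquitin system genes in the vehicle library (open circles) and the ebastine library (filled circles), in FPKM on a log axis; line colour gives the enzyme class and an asterisk a q-value in the authors' deposited table below 0.05. NEDD4L has the widest gap on this axis, from 44.6 to 149 FPKM, and the 3 E2 conjugases all lie lower with ebastine.

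NEDD4L carried the largest ratio of the 20. It is a HECT ligase of the plasma membrane, also called NEDD4-2, whose WW domains bind PY motifs and which is best known for removing the epithelial sodium channel from the cell surface. Its locus in hg19, the build named in the submitters' processing notes, is chromosome 18, 55711610 to 56068772. NEDD4L had 44.6 FPKM in the vehicle library and 149 FPKM in the ebastine library, 3.30 times as much (log2 ratio 1.72). In the vehicle library it was the fifth most abundant of the 20; with ebastine only RNF187 lay above it. Among the 1768 genes 5 had a higher ratio, and those had mean levels of 2.04 to 13.98 FPKM, against 97.0 FPKM for NEDD4L. It was the only member past 2-fold, a size that 1.81% of the 1768 genes reached upward; 0 members were 2-fold lower, beside 4.86%. The authors' deposited q-value was 0.00178. Over the alternatives tried, its log2 ratio ran from 1.64 to 2.07. NEDD4, its closest relative, and the other HECT genes with UBE3 or HERC names were not listed. NEDD4L is thus the only value of the HECT class as the name rule draws it.

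Partners of the NEDD4 family differed less and in both directions. The list of 42 adaptors, regulators and membrane targets had 9 listed members, 8 of them averaging at least 1 FPKM, of which 4 were higher and 4 lower, with a median log2 ratio of 0.032. All listed genes averaging at least 1 FPKM stood at 43.0% higher and 57.0% lower, with a median of -0.32. SGK1, the kinase that phosphorylates NEDD4L and keeps it from its substrates, went from 3.10 to 1.70 FPKM, 1.52-fold lower, with a q-value of 0.00466 in the authors' deposited table. WBP2, a WW-domain binding protein, had the highest ratio of the list, 1.45-fold, at 53.7 and 78.3 FPKM. NDFIP1, a membrane adaptor that recruits and activates NEDD4 ligases, went from 27.3 to 34.8 FPKM, with a q-value of 0.191 in the authors' deposited table. WWP2, another HECT ligase of the NEDD4 family whose name the rule does not catch, was 1.42-fold higher (5.79 against 8.62 FPKM). None of the sodium channel subunits on the list, SCNN1A, SCNN1B, SCNN1D and SCNN1G, was listed.

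**Figure D2:**
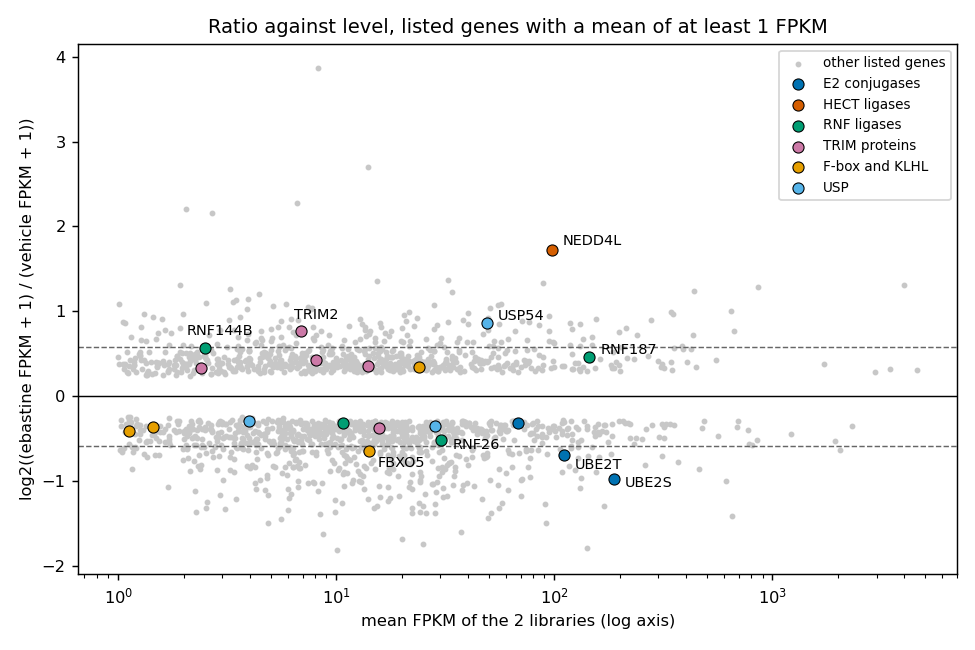
Log2 ratio of ebastine over vehicle (pseudocount 1 FPKM) against the mean FPKM of both libraries on a log axis, for the 1768 listed genes averaging at least 1 FPKM; coloured points are the 20 members by class and dashed lines mark 1.5-fold. The listed genes leave a gap around 0, NEDD4L lies at 1.72, and UBE2S and UBE2T lie at -0.98 and -0.69 among the more abundant genes.

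All 3 listed E2 conjugases were lower in the ebastine library, beside 57.0% of all listed genes averaging at least 1 FPKM, and their median log2 ratio was -0.69. UBE2S, which lengthens ubiquitin chains on substrates of the anaphase-promoting complex, was the most abundant member in the vehicle library (chromosome 19, 55912650 to 55920830). UBE2S had 250.04 FPKM in the vehicle library and 126 FPKM in the ebastine library, 1.97-fold lower. In RefSeq the gene overlaps the ribosomal protein gene RPL28, and the strand setting of the counting is not given, and whether reads of RPL28 entered its value was not tested. UBE2T, the conjugase that works with the Fanconi anemia ligase in DNA crosslink repair, went from 137 to 84.3 FPKM, 1.62-fold lower (chromosome 1, 202300785 to 202311094). Both had a q-value of 0.00178 in the authors' deposited table. UBE2V2, a conjugase-like protein without a catalytic cysteine that partners UBE2N in damage tolerance, differed less, at 75.8 and 60.7 FPKM (chromosome 8, 48920995 to 48974454). The authors' deposited q-value was 0.248, and its ratio turned to 0.028 after centring (setting the median ratio of listed genes averaging at least 10 FPKM to 0). UBE2C, the conjugase that starts those chains and that the name rule leaves out, stood at 94.1 and 47.4 FPKM. The libraries are bulk samples, in which fewer cells of a kind, such as dividing cells, and less RNA per cell cannot be told apart.

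FBXO5, CDC20 and CDC27, genes around the anaphase-promoting complex, were lower on both the activating and the inhibiting side. They are too few to set apart from the 57.0% lower among all listed genes averaging at least 1 FPKM. FBXO5, also known as EMI1, is an F-box protein that inhibits this complex before mitosis (chromosome 6, 153291658 to 153304740). FBXO5 went from 17.4 to 10.8 FPKM, 1.57-fold lower, with a q-value of 0.00178 in the authors' deposited table. Of 16 genes of the complex and its activators 2 were listed, beside 9.09% of the coding symbols in RefSeq. The mitotic activator CDC20 had 80.3 FPKM in the vehicle library and 31.6 FPKM in the ebastine library, 2.49-fold lower, and the subunit CDC27 had 21.3 and 15.1 FPKM, 1.38-fold lower. Among all listed genes averaging at least 1 FPKM, 18.6% were at least 1.5-fold lower and 4.86% at least 2-fold lower. The q-values of CDC20 and CDC27 in the authors' deposited table were 0.00178 and 0.0498.

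The other F-box and kelch proteins showed small differences at low or moderate levels. FBXO15, an F-box gene known as a marker of pluripotent cells, went from 1.42 to 0.828 FPKM (chromosome 18, 71740588 to 71815100). KLHL1, a kelch protein studied mostly in neurons, went from 1.75 to 1.14 FPKM (chromosome 13, 70274725 to 70713885). KLHL21, a CUL3 adaptor that acts on Aurora B in dividing cells, was the only one of the class that was higher, at 21.1 and 26.9 FPKM (chromosome 1, 6650779 to 6662929). None of these 3 had a q-value in the authors' deposited table below 0.05. With FBXO5 the class held 3 lower and 1 higher gene, too few to set apart from the 57.0% lower among all listed genes averaging at least 1 FPKM, and its median log2 ratio was -0.39. Without a pseudocount the ratios of FBXO15 and KLHL1 were -0.78 and -0.62, past 1.5-fold, which shows how far the added 1 FPKM compresses genes near that level. Cullin adaptors with other names pointed one way. Of 71 such genes 7 were listed; leaving out KBTBD8, under 1 FPKM in both libraries, all 6 were lower, beside 57.0% of all listed genes averaging at least 1 FPKM, with a median log2 ratio of -0.53 beside -0.32. RHOBTB3 had the lowest ratio, at 6.79 and 3.94 FPKM, and the damaged-DNA receptor DDB2 stood at 13.7 and 8.70 FPKM; they were 1.58-fold and 1.51-fold lower. After centring (defined above for UBE2V2) all 6 were still below 0, but their median was -0.22 and 0 of them reached 1.5-fold. SKP2, the F-box protein that targets the cell-cycle inhibitor p27 and was named after its value was seen, went from 25.9 to 17.3 FPKM. The smallest difference among these 6 was that of KCTD3, 1.28-fold lower.

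The 4 RNF ligases split evenly, with a median log2 ratio of 0.073 and none past 1.5-fold. The split of all listed genes averaging at least 1 FPKM was 43.0% higher and 57.0% lower. At 1.5-fold or more it was 9.67% and 18.6%. RNF187, also known as RACO-1, a coactivator of the transcription factor AP-1, was the most abundant member in the ebastine library (chromosome 1, 228675068 to 228683889). RNF187 had 122 FPKM in the vehicle library and 168 FPKM in the ebastine library, 1.37-fold higher. RNF144B, a RING-between-RING ligase known as a p53-induced gene, was low in both libraries, at 1.81 and 3.16 FPKM, a 1.48-fold difference (chromosome 6, 18387581 to 18469105). Without the pseudocount its log2 ratio was 0.80, past 1.5-fold. RNF26, a membrane ligase of the endoplasmic reticulum, went the other way, from 35.8 to 24.8 FPKM, 1.43-fold lower (chromosome 11, 119205210 to 119208024). These 3 had q-values below 0.05 in the authors' deposited table, 0.0341 for RNF187, 0.00178 for RNF144B and 0.00945 for RNF26. RNF138, a ligase that acts at DNA double-strand breaks, stood at 12.0 and 9.49 FPKM (chromosome 18, 29671818 to 29711524), and its log2 ratio of -0.31 became 0.0057 after centring.

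TRIM proteins were mostly higher in the ebastine library. Of 5 listed, 4 were higher, beside 43.0% of all listed genes averaging at least 1 FPKM, and the median log2 ratio was 0.36. TRIM2, a ligase known for binding neurofilament light chain, had 4.85 FPKM in the vehicle library and 8.93 FPKM in the ebastine library, 1.70-fold higher (chromosome 4, 154074270 to 154260474). It was the only TRIM gene with a q-value in the authors' deposited table below 0.05, at 0.00178. The other higher genes were 3 regulators of innate immune signalling, with smaller differences. TRIM56 went from 6.76 to 9.41 FPKM (chromosome 7, 100728786 to 100735010), TRIM25, the ligase of RIG-I, from 12.1 to 15.7 FPKM (chromosome 17, 54965270 to 54991409), and TRIM38 from 2.01 to 2.79 FPKM (chromosome 6, 25962917 to 25987557). TRIM69 was lower, at 17.9 and 13.6 FPKM (chromosome 15, 45021219 to 45060025). The q-values of these 4 in the authors' deposited table ran from 0.0789 to 0.164.

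Of the 3 listed deubiquitinases, 1 was higher and 2 were lower, close to the 43.0% and 57.0% of all listed genes averaging at least 1 FPKM. USP54, long regarded as a family member without activity, had 34.4 FPKM in the vehicle library and 63.3 FPKM in the ebastine library, 1.81-fold higher (chromosome 10, 75257296 to 75351298). It had the second highest ratio of the 20 and a q-value of 0.00178 in the authors' deposited table. Its relative USP53, a tight-junction protein, did not share that direction, at 4.49 and 3.49 FPKM (chromosome 4, 120114528 to 120216673). USP1 removes ubiquitin from PCNA and from FANCD2, where it reverses the mark that UBE2T places. USP1 went from 31.7 to 24.6 FPKM, 1.28-fold lower (chromosome 1, 62901975 to 62917475), a log2 ratio of -0.35 that became -0.017 after centring. USP1 and USP53 had q-values of 0.148 and 0.223 in the authors' deposited table. OTUB1 was the only one listed of 39 other deubiquitinases and proteases of ubiquitin-like proteins, 1.24-fold higher (23.0 against 28.7 FPKM).

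**Figure D3:**
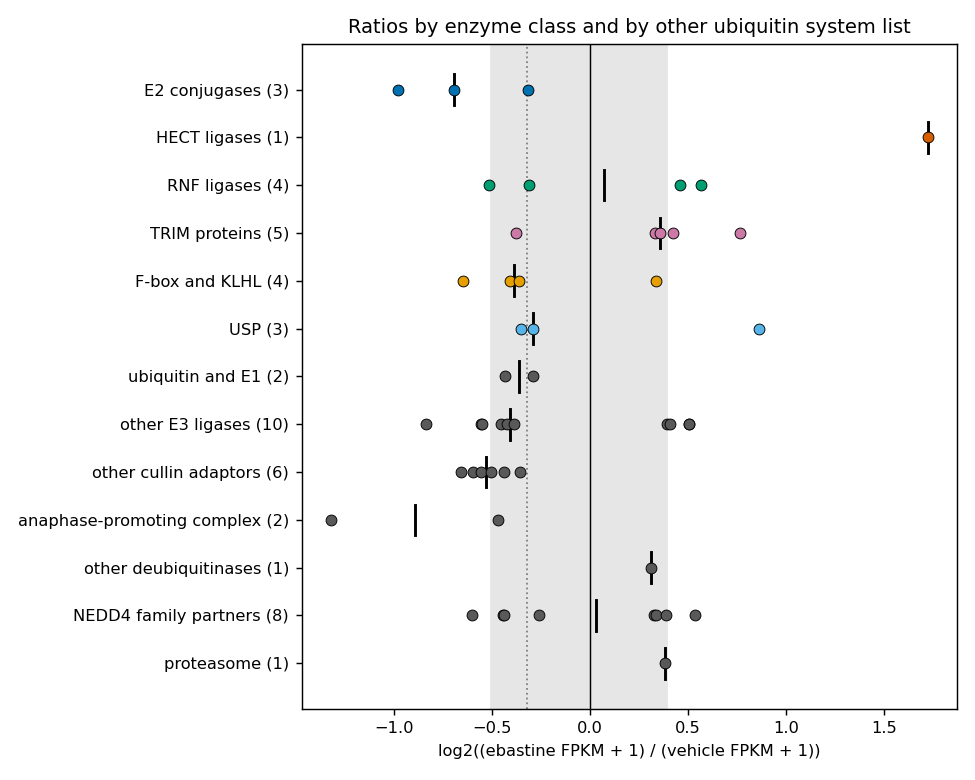
Log2 ratio of ebastine over vehicle for each listed gene averaging at least 1 FPKM, by enzyme class (coloured) and by other ubiquitin system list (grey), with the number of genes in brackets and a black bar at each median. The shaded band spans the quartiles of all 1768 genes, -0.50 to 0.39, and the dotted line is their median of -0.32. The E2 conjugases, the other cullin adaptors, the ubiquitin and E1 genes and the anaphase-promoting complex genes lie wholly below 0. NEDD4L lies outside the band, as do other members such as UBE2S at -0.98 and USP54 at 0.86.

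Across the other ubiquitin system lists, lower values outnumbered higher ones, as they did among all listed genes. Together, 7 lists of other genes held 307 genes, of which 33 were listed; of the 30 averaging at least 1 FPKM, 20 were lower and 10 higher, beside 57.0% and 43.0% of all listed genes, and 5 were 1.5-fold lower against 0 higher, beside 18.6% and 9.67%. After centring the split was 18 lower and 12 higher, with 1 gene 1.5-fold lower and 10 higher, beside 6.84% and 40.6% of all listed genes under that scaling. The lower counts, 5 and 1 of 30, lay near these shares. Of 77 other ligases 10 were listed, 6 lower and 4 higher, close to the split of all listed genes. NEURL1B, a ligase of Notch ligands, had the lowest ratio of those 10, 1.79-fold lower at 6.99 and 3.48 FPKM, and WWP2 had the highest. NEURL and G2E3, ligases on none of the 7 lists, went from 7.67 to 2.08 FPKM and from 14.7 to 8.35 FPKM. They were named after their values were seen, and other ligases that the lists miss were not sought. RAD18 and HLTF, ligases of the clamp protein PCNA that were named after their values were seen, stood at 5.66 and 3.97 FPKM and at 132 and 96.0 FPKM. BRCA1 was 1.47-fold lower (17.4 against 11.5 FPKM) while its partner BARD1, which forms the ligase with it, was 1.33-fold higher (16.5 against 22.2 FPKM); this pair too was named after its values were seen. Among ubiquitin and E1 genes, the SUMO-activating subunit UBA2 and the NEDD8-activating subunit NAE1 were 1.35-fold and 1.22-fold lower (after centring 1 of the 2 was higher), and UBA7, the activating enzyme of ISG15, stood at 0.330 and 0.608 FPKM. No subunit of the proteasome was listed; NFE2L1, the transcription factor that controls those genes, was the only listed gene of 50 on that list, at 57.6 and 75.5 FPKM.

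Upstream sequences are shown for members on both sides. The lower ones are the 3 with a q-value in the authors' deposited table below 0.05 and a single RefSeq start (UBE2S, UBE2T and RNF26). For contrast, sequences of NEDD4L and RNF144B are shown. Each is RefSeq sequence of GRCh38.p14, not the hg19 of the loci above, from 250 to 51 bases before the start, 5′ to 3′ on the gene's strand, 200 bases in all. Capitals mark TTTGAA, the letters of the cell cycle genes homology region that many mitotic promoters carry, and CCAAT, the box bound by NF-Y, on either strand. Bases nearer the start than 51 were not searched, so a motif lying there would be missed. The place of a match within the window was not used to judge whether it is such an element. NEDD4L has 5 starts in RefSeq, of which the second from upstream is shown, the most upstream of 3 whose windows overlap no exon of GENCODE v29; which of them C4-2 cells use was not measured.
UBE2S, chr19:55407839-55408038, minus strand: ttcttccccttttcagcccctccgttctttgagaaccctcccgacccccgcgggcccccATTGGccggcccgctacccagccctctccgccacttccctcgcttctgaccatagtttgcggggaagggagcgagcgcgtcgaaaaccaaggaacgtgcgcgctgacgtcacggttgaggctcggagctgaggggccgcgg
UBE2T, chr1:202341987-202342186, minus strand: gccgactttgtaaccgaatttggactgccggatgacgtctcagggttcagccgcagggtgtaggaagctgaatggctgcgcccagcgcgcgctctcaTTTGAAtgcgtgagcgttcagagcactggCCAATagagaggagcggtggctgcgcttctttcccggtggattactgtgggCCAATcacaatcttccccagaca
RNF26, chr11:119334277-119334476, plus strand: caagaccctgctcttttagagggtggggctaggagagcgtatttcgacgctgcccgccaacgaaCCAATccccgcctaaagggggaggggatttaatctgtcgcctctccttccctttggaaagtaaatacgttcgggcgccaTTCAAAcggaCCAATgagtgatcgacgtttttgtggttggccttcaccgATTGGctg
NEDD4L, chr18:58149070-58149269, plus strand: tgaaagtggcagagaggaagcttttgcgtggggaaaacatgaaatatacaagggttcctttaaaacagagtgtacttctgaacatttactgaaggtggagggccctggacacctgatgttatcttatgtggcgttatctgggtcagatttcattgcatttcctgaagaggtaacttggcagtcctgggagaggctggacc
RNF144B, chr6:18387100-18387299, plus strand: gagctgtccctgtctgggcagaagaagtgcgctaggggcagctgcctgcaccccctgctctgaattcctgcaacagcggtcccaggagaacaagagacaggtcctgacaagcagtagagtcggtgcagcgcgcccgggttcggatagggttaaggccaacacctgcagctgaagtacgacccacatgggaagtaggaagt

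The 3 lower members' windows held a CCAAT box and those shown for NEDD4L and RNF144B did not, but 2 of the 5 NEDD4L windows held one and 1 held TTTGAA. In UBE2T the boxes lay 124 to 120 and 73 to 69 bases before the start, with TTTGAA at 153 to 148. RNF26 had 3 boxes and TTTGAA on the other strand at 107 to 102, and UBE2S had 1 box on the other strand at 191 to 187. Windows of this kind were found for 19 members (all but UBE2V2), 12 windows for 10 lower and 21 for 9 higher members, since several genes have more than 1 start. CCAAT was in 7 of the 12 windows of lower members (58.3%) and in 6 of the 21 of higher members (28.6%), beside 27.4% of all 35116 windows. TTTGAA was in 3 of the 12 (25%) and 2 of the 21 (9.52%), beside 11.3% of all windows. The variant TTTAAA was in 0 of the 12 and in 6 of the 21, beside 9.31%. The NEDD4L window printed above is among those 6, and its TTTAAA is not capitalized. Genes with several starts weigh more in these shares, and TRIM2, NEDD4L and USP54 have 6, 5 and 4 starts. Counted by gene, CCAAT was in 7 of 10 lower and 4 of 9 higher members. TTTGAA was in 3 lower and 2 higher members, and TTTAAA in 0 and 3. No share by gene was computed over all genes, so the window shares above are no background for these counts by gene. The E-box CACGTG, which lysosomal genes share, was in none of the 33 members' windows, beside 4.51%, and TTCCCGC, part of the E2F consensus, was in 1 window on each side. The motifs were chosen after the values were seen, TTTGAA and CCAAT do not overlap each other as written, and a match of letters describes the window and does not show that a factor binds there.

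**Figure D4:**
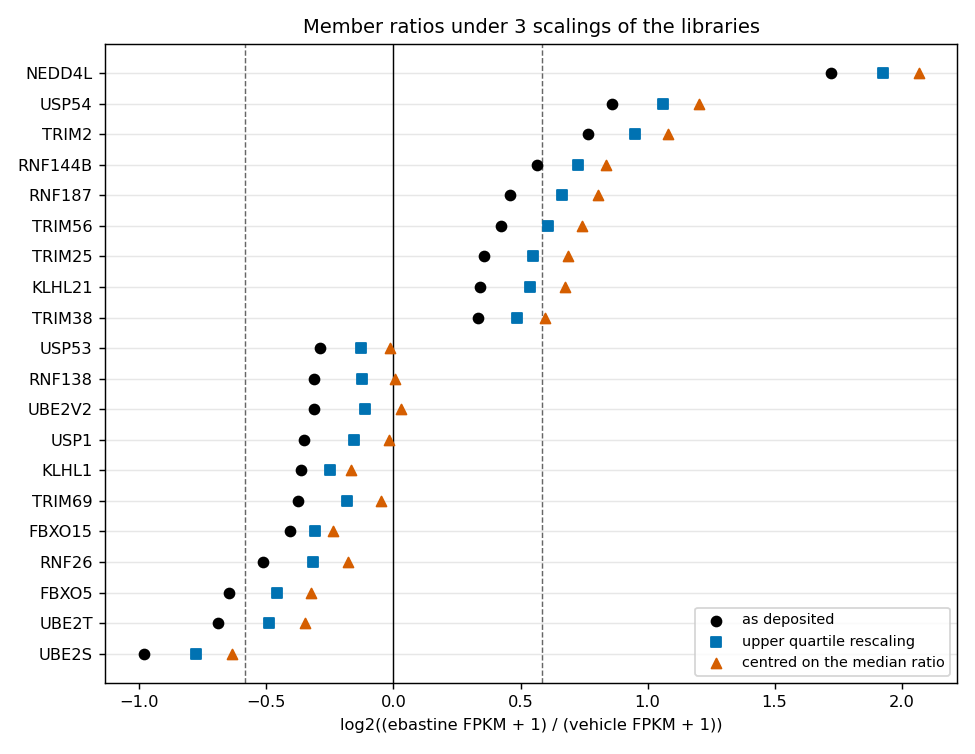
Log2 ratio of ebastine over vehicle for the 20 members as deposited (circles), after upper quartile rescaling (squares) and after centring on the median ratio of listed genes averaging at least 10 FPKM (triangles), with dashed lines at 1.5-fold. Centring leaves UBE2S as the only member 1.5-fold lower, at -0.64, and places 9 members 1.5-fold higher, with NEDD4L highest at 2.07.

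Which members stood past 1.5-fold depended on the scaling applied, as the plot of member ratios by scaling shows. Centring raised every ebastine value by a factor of 1.27, a log2 shift of 0.35, and upper quartile rescaling by a factor of 1.15. Both factors were computed from the listed genes alone, all with a deposited p-value under 0.05, and not from whole libraries. The median ratio of genes so chosen need not be 0, so these rescalings show dependence on scaling and not a corrected value. Centring gave 9 members at least 1.5-fold higher and 1 lower, beside 40.6% and 6.84% of all listed genes under that scaling. UBE2V2 and RNF138 were then on the other side of 0, and the remaining 18 kept their direction. Upper quartile rescaling gave 6 higher and 1 lower, beside 24.4% and 10.4% of all listed genes, and turned no member. Under both rescalings these counts lay near the background.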

How the data were processed

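RNA sequencing of polyadenylated RNA from 2 C4-2 cultures was analysed, 1 library per group. TopHat2, Cuffdiff and hg19 appear in the submitters' processing notes without versions or roles. The deposited table has Cuffdiff's gene layout, per the file headers: FPKM per library as scaled by the authors, the authors' log2 fold change, a test statistic (a deposited score, not used here) and the authors' p-value and q-value. The gene models, strandedness and method of scaling are likewise not given there. Only genes with a deposited p-value under 0.05 are listed; depth is unknown.

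Members were taken by name rule, and 1 listed symbol had been turned into a date (7-Sep, no member). Ratios used a pseudocount of 1 FPKM, and counts a minimum mean of 1 FPKM and 1.5-fold. The procedure was tested on simulated data. Tools were Python 3.11.15 and pandas 2.3.3. Family sizes and promoters came from RefSeq GRCh38.p14; locus starts were taken to count from 0, since 60 of 1684 loci then matched RefSeq's gene length exactly, against 27 otherwise. Members, classes and lists were chosen with earlier results of these data known. Named genes were NEDD4L, members past 1.5-fold or below 0.05 by the authors' deposited q-value, the highest and lowest of each class and list, and list genes past 1.5-fold; all 20 members are given.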

Additional observations from a re-analysis of the deposited data

How the results depend on the processing

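No replicates exist, so the ratios carry no error, and the depth behind them is unknown. No paired analysis was possible because each group has 1 library. A change of at least 0.1 on the log2 scale, or of 1.5 times in a count, was taken as a move, and the cause of a move was not tested beyond what each alternative changes by construction. Counting UBE2C, rescaling to equal sums and leaving out alternative haplotypes and shared loci moved none of the results recomputed under them; counting UBE2C and using no pseudocount were chosen after seeing the data. After centring, members past 1.5-fold numbered 9 higher and 1 lower (40.6% and 6.84% of all listed genes). The median of all members turned to 0.017 (-0.0069 over all listed genes). The class medians became -0.35 for E2 conjugases, 2.07 for NEDD4L as the only HECT ligase caught by the name rule, and 0.41 for RNF. They were 0.69 for TRIM, -0.20 for cullin adaptors and -0.013 for deubiquitinases. UBE2V2 turned to 0.028 and RNF138 to 0.0057, while USP1 came close to 0 at -0.017. Upper quartile rescaling gave 6 higher and 1 lower (24.4% and 10.4% of all listed genes), a median of -0.12 (-0.14 over all listed genes), and class medians of -0.49, 1.93, 0.27, 0.55, -0.28 and -0.13 in the same order. Keeping only q-values under 0.05 in the authors' deposited table left 5 members higher and 4 lower, turned the median of all members to 0.46, that of deubiquitinases to 0.86 (USP54 alone) and that of NEDD4 family partners to -0.44, and gave -0.84 for E2 conjugases, 0.46 for RNF, 0.76 for TRIM (TRIM2 alone) and -0.65 for cullin adaptors (FBXO5 alone). Of the 747 listed genes averaging at least 1 FPKM that the q limit kept, 36% were higher, with a median of -0.51. A minimum mean of 5 FPKM turned the medians of RNF to -0.31 and of deubiquitinases to 0.25 and gave -0.15 for cullin adaptors. No minimum turned that of NEDD4 family partners to -0.26. Over all listed genes the medians under these minimums were -0.33 and -0.31. A pseudocount of 5 gave -0.14 for all members (-0.21 over all listed genes), -0.14 for cullin adaptors and -0.16 for deubiquitinases. A pseudocount of 0.1 gave -0.64 for cullin adaptors. Without a pseudocount 5 members were 1.5-fold lower (25.3% of all listed genes), and the TRIM and cullin adaptor medians were 0.47 and -0.66. At 2-fold, 1 member was higher and 0 lower (1.81% and 4.86% of all listed genes).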
